A study of Oryza sativa with 12 samples.

Results

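Wall-associated kinases (WAKs) and receptor-like cytoplasmic kinases (RLCKs) were followed in leaves of 2 rice varieties, with and without bicarbonate salt-alkali stress. The members are all genes whose deposited name contains WAK followed by a digit, or contains RLCK. The 4 deposited tables, joined by gene identifier, hold 205 such genes among 13674 genes in all, 39 of them WAK genes and 166 RLCK genes. 7 names stand on 2 identifiers each, and these 14 entries were kept apart.

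A WAK is a receptor kinase whose outer part, with repeats like those of epidermal growth factor, binds pectin in the plant cell wall, and whose inner part is a protein kinase. The family is much larger in rice than in Arabidopsis, often as neighbouring copies. RLCKs as a family have a kinase domain but no outer receptor part, and pass on signals from receptor kinases at the cell surface to reactive oxygen production, MAP kinases and gene expression in immunity, growth and stress. A few genes with RLCK names are receptor kinases by their other names: in the RefSeq gene table OsRLCK134 and OsRLCK136 carry the synonyms of the lectin receptor kinases LecRK1 and LecRK4, and OsRLCK85 that of ER2, a kinase of the ERECTA family.

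The groups were stressed QJ10 leaves, QJ10 control leaves, stressed LJ31 leaves and LJ31 control leaves, with the varieties written QJ and LJ as in the column headers. Each group had 3 libraries, biological replicates per the series record, and the stress was applied at 200 mmol/L. The sources used here give neither plant age nor the length of the stress. The file of each variety's stress comparison is named after the opposite variety, so the group labels rest on the column headers alone, and every direction below follows these headers.

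Values are FPKM, that is, fragment numbers corrected for how long a transcript is and how large its library, so levels can be compared between genes. Each table lists only genes that the authors had selected by an adjusted p below 0.05 together with a change of 1 or more log2 units in either direction. A member therefore has values in a group only if a table covering that group listed it: 102 members had values in all 4 groups, 48 in 3 groups and 55 in 2. Listed values summed to 302273 to 304097 FPKM per library in stressed QJ, 310974 to 312214 in QJ controls, 521586 to 522465 in stressed LJ and 375808 to 376025 in LJ controls, which is part of each library and not its depth. No source used here gives read depth, so no counting interval could be set. Beside the leaf label a list of mesophyll markers was read, of which 36 genes had values and 17 had them in all 12 libraries. Such markers do not show whether other tissue was present. Sums over markers are given for complete genes only. The 17 summed to 4674 to 4789 FPKM in stressed QJ, 15761 to 16036 in QJ controls, 2100 to 2167 in stressed LJ and 11692 to 11774 in LJ controls, with none of the 17 at 0, while psbD, with no value in stressed QJ, was at 0 in all LJ controls. Of 27 flower and anther genes with values, the 14 complete ones summed to 44.5 to 48.5 FPKM in stressed QJ, 38.8 to 46.4 in QJ controls, 175 to 182 in stressed LJ and 585 to 594 in LJ controls, and 4 of them were at 0 in all stressed QJ libraries and 3 in all QJ controls. MADS14 alone made up 40.8 to 44.2 FPKM of the sum in stressed QJ, and RTS, with no value in stressed QJ, had 0 in QJ controls and stressed LJ and 115 to 128 in LJ controls. OSC6 had 150 to 157 FPKM in LJ controls, 0.45 to 0.89 in stressed LJ, 0 to 0.11 in QJ controls and 0 in stressed QJ. Of the 25 flower and anther genes with values in both controls, 0 were higher in QJ by mean. Of 28 secondary wall and fasciclin-like arabinogalactan genes with values, the 18 complete ones summed to 14.3 to 15.8 FPKM in stressed QJ, 44.6 to 46.6 in QJ controls, 70.7 to 73.6 in stressed LJ and 620 to 642 in LJ controls. These lists differed between varieties and with stress along with many members, and their part in the members' differences was not tested. In bulk leaf RNA, fewer cells of a type and less RNA per cell cannot be told apart.

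WAK112 had the highest mean level of the WAK genes. Its level was 226, 239 and 233 FPKM in stressed QJ, 490, 496 and 486 in QJ controls, 85.6, 89.1 and 87.8 in stressed LJ, and 221, 218 and 215 in LJ controls. No groups overlapped, and from high to low the order was QJ control, stressed QJ, LJ control, stressed LJ. In rice, overexpressed WAK112 lowers salt tolerance, and the gene acts as a negative regulator of resistance to blast fungus. It fell 2.10-fold under stress in QJ (adjusted p = 6.06e-09) and 2.47-fold in LJ (adjusted p = 1.93e-09), and was higher in QJ than in LJ by 2.25-fold in controls (adjusted p = 1.03e-09) and by 2.64-fold under stress (adjusted p = 2.02e-09). All folds come from a limma fit on log2(FPKM + 1), two-sided, with p adjusted by Benjamini-Hochberg over all genes of the table, and they are smaller than ratios of FPKM where levels are low.

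The next WAK genes by mean level over the libraries with values were OsWAK1, OsWAK20, OsWAK10, OsWAK11 and WAK14, a rank over different groups, since only OsWAK1 of these had values in all 4. By highest group mean OsWAK21, at 55.1 FPKM in LJ controls, exceeded OsWAK10, OsWAK11 and WAK14, and OsWAK123, described below, exceeded WAK14. OsWAK1 had 37.7, 39.1 and 38.2 FPKM in stressed QJ, 26.9, 28.7 and 29.3 in QJ controls, 93.7, 89.6 and 90.3 in stressed LJ, and 80.7, 78.9 and 79.6 in LJ controls. It was 2.34-fold lower in QJ under stress (adjusted p = 8.41e-09) and 2.76-fold lower in QJ controls (adjusted p = 1.38e-08). OsWAK20 had 19.2 ± 0.131 FPKM in stressed QJ, 47.8 ± 1.71 in QJ controls and 60.7 ± 1.57 in stressed LJ (SD, n = 3 each), with no value for LJ controls. OsWAK10 had values under stress only, with 27.7, 28.95 and 28.1 FPKM in stressed QJ against 48.8, 45.3 and 51.8 in stressed LJ. OsWAK11, linked in rice to pectin sensing and brassinosteroid signalling, was listed only for stress in LJ, with 48.4 ± 1.08 FPKM under stress and 26.4 ± 1.25 in controls (SD, n = 3 each). WAK14, a positive regulator of blast resistance in rice, was listed between the controls only, at 15.7 ± 0.268 FPKM in QJ and 44.1 ± 0.411 in LJ (SD, n = 3 each), 2.70-fold lower in QJ (adjusted p = 1.42e-08). At the other end, 6 WAK genes stayed under a mean of 1 FPKM in every group with a value.

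**Figure D1:**
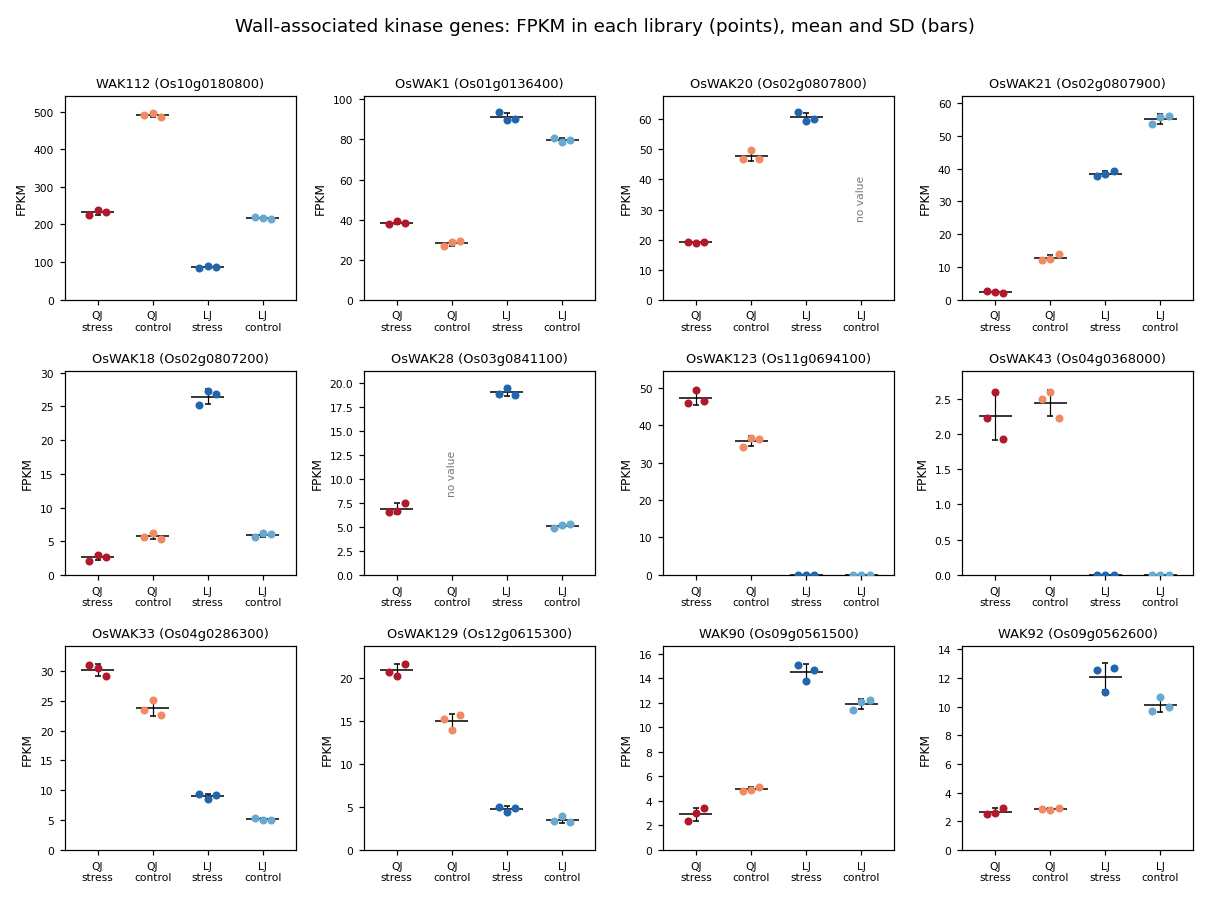
FPKM of 12 WAK genes in each library (points) with the group mean and SD (bars), for stressed QJ, QJ control, stressed LJ and LJ control; "no value" marks a group that no table covers for that gene. WAK112 reached 491 FPKM in QJ controls, OsWAK18 stood apart in stressed LJ, and OsWAK123 and OsWAK43 passed 0.1 FPKM in QJ only.

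Under stress, WAK genes rose and fell in about equal number in QJ and mostly rose in LJ. In QJ, 11 of 13 listed WAK genes passed the filter on low values (at least 1 FPKM in at least 3 libraries), of which 6 rose and 5 fell, while 99.7% of all 3641 genes tested in that table passed, 50.7% higher and 49% lower. The median WAK log2 fold change was 0.83, against 0.66 over all genes. In LJ, 13 of 16 were tested, of which 10 rose and 3 fell, against a background of 99.7% of 5990 genes passing, 49.6% higher and 50% lower, and the medians were 0.95 for WAK genes and -0.54 for all genes. Since the tables leave out small changes, these medians mainly show which direction held more genes. Because the tables hold only genes selected for these differences, that the members pass says nothing further about them.

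Among WAK genes averaging at least 5 FPKM in stressed or control QJ leaves, OsWAK50 and OsWAK101 had the largest called rises in QJ. OsWAK50 had 6.10, 6.77 and 6.04 FPKM in stressed QJ against 1.27, 1.25 and 1.17 in QJ controls, a 3.27-fold rise (adjusted p = 6.11e-07). OsWAK101 had 16.4, 16.9 and 16.3 FPKM in stressed QJ against 5.99, 6.03 and 6.61 in QJ controls, a 2.43-fold rise (adjusted p = 6.00e-07). OsWAK46 was listed at 0 in all 3 QJ controls and at 2.00, 1.80 and 1.59 FPKM in stressed QJ, while LJ had 8.07 ± 0.400 under stress and 3.21 ± 0.108 in controls (SD, n = 3 each). Falls in QJ were led by OsWAK21, with 2.59, 2.29 and 2.20 FPKM in stressed QJ against 12.2, 12.5 and 13.9 in QJ controls, 4.13-fold (adjusted p = 1.97e-07). OsWAK20 fell 2.42-fold in QJ (adjusted p = 4.91e-08). For each of these genes the stressed and control libraries of QJ did not overlap.

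In LJ the rises were led by OsWAK18, OsWAK28, OsWAK2 and OsWAK47. OsWAK28 had 18.9, 19.6 and 18.8 FPKM in stressed LJ against 4.94, 5.17 and 5.28 in LJ controls, a 3.27-fold rise (adjusted p = 4.23e-08), and in stressed QJ it had 6.91 ± 0.561 (SD, n = 3). OsWAK2 had 14.8 ± 0.492 FPKM in stressed LJ against 4.58 ± 0.277 in LJ controls (SD, n = 3 each), and OsWAK47 6.35 ± 0.243 against 1.80 ± 0.150. OsWAK18 took opposite directions in the varieties, with 2.13, 2.98 and 2.73 FPKM in stressed QJ, 5.66, 6.26 and 5.34 in QJ controls, 25.2, 27.3 and 26.9 in stressed LJ, and 5.60, 6.24 and 6.11 in LJ controls. The controls of both varieties overlapped, stressed LJ lay above them and stressed QJ below. It fell 1.88-fold in QJ (adjusted p = 1.41e-04) and rose 3.93-fold in LJ (adjusted p = 2.47e-08), and the stress response in QJ minus that in LJ was -2.88 ± 0.13 on the log2 scale (SE, adjusted p = 1.23e-09).

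Between varieties, the share of WAK genes lower in QJ was close to that of all genes under stress, at 65.2% against 65.4%, and was 57.9% against 68.6% in controls. In controls, 19 of 22 listed WAK genes were tested and 8 were higher and 11 lower in QJ, with 99.7% of 6108 genes passing and 31.1% higher. Under stress, 23 of 27 were tested and 8 were higher and 15 lower in QJ, with 99.4% of 5662 genes passing and 34% higher. Median log2 differences were -0.97 for WAK genes and -1.02 for all genes in controls, and -1.02 for WAK genes and -0.82 for all genes under stress. The genes higher in QJ in both conditions included OsWAK33, OsWAK32 and OsWAK129. OsWAK33 had 31.0, 30.5 and 29.1 FPKM in stressed QJ against 9.31, 8.57 and 9.18 in stressed LJ, and 23.4, 25.1 and 22.5 in QJ controls against 5.41, 5.00 and 5.00 in LJ controls. OsWAK129 had 20.9 ± 0.716 FPKM in stressed QJ against 4.80 ± 0.291 in stressed LJ, and 14.97 ± 0.851 in QJ controls against 3.54 ± 0.407 in LJ controls (SD, n = 3 each). On the other side OsWAK21 was 11.7-fold lower in QJ under stress (adjusted p = 1.47e-09) and 4.05-fold lower in QJ controls (adjusted p = 1.26e-08).

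WAK90 and WAK92, neighbours on chromosome 9 by their identifiers, were both lower in QJ; WAK92 is a positive regulator of blast resistance in rice. WAK90 had 2.36, 2.98 and 3.40 FPKM in stressed QJ against 15.1, 13.8 and 14.7 in stressed LJ, 3.99-fold lower (adjusted p = 6.07e-07), and 4.97 ± 0.154 in QJ controls against 11.9 ± 0.418 in LJ controls (SD, n = 3 each). WAK92 had 2.49, 2.56 and 2.93 FPKM in stressed QJ against 12.5, 11.0 and 12.7 in stressed LJ, 3.57-fold lower (adjusted p = 3.75e-07), and 2.84 ± 0.0611 in QJ controls against 10.1 ± 0.486 in LJ controls. DEES1, a WAK gene of rice needed for embryo sac development, lies between them by identifier and is no member by its name; it had 2.93 ± 0.173 FPKM in stressed QJ against 13.4 ± 0.408 in stressed LJ, and 2.70 ± 0.441 in QJ controls against 9.72 ± 0.702 in LJ controls (SD, n = 3 each). The sources used here do not say how reads shared by such close copies were counted, and values of neighbouring WAK and RLCK copies carry that uncertainty.

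Presence in 1 variety was defined by every library of the other variety with a value being under 0.1 FPKM and a group mean of at least 1 FPKM in the first. By this rule 3 members were limited to QJ and 0 to LJ, against 137 genes (1.00%) limited to QJ and 346 (2.53%) to LJ in the whole series. OsWAK123 had 45.8, 49.4 and 46.5 FPKM in stressed QJ and 34.2, 36.6 and 36.3 in QJ controls, against 0.04, 0 and 0 in stressed LJ and 0 in all 3 LJ controls. OsRLCK353 had 27.5, 23.2 and 25.7 FPKM in stressed QJ and 11.6, 11.7 and 10.3 in QJ controls, against 0, 0 and 0.03 in stressed LJ and 0 in all LJ controls. OsWAK43 had 2.23, 2.59 and 1.93 FPKM in stressed QJ and 2.50, 2.59 and 2.23 in QJ controls, against 0 in all 6 LJ libraries. The members nearest to the rule but outside it were OsWAK37, with up to 0.12 FPKM in LJ and a QJ control mean of 3.72, and, low in QJ, OsRLCK8, with up to 0.18 FPKM in QJ and a mean of 1.63 in stressed LJ. Where the deposited tables list a level of 0, a missing gene, a silent gene, a sequence that differs from the reference and a failed estimate cannot be told apart here. OsWAK123 and OsRLCK353 both stand on chromosome 11 and OsWAK43 on chromosome 4 by their identifiers.

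The RLCK family held the highest levels of all members: 18 of its 166 genes had a group mean of at least 100 FPKM, and 24 stayed under 1. OsRLCK63 was the highest, with 36.2, 35.6 and 37.8 FPKM in stressed QJ, 222, 222 and 230 in QJ controls, 455, 458 and 445 in stressed LJ, and 725, 717 and 740 in LJ controls. No groups overlapped. It fell 6.02-fold under stress in QJ (adjusted p = 3.44e-10) and was 12.1-fold lower in QJ than in LJ under stress (adjusted p = 4.94e-11). Its stress response in QJ minus that in LJ was -1.91 ± 0.04 on the log2 scale (SE, adjusted p = 4.44e-13). Summed over the 82 RLCK genes with values in all 12 libraries, levels were 1103 to 1124 FPKM in stressed QJ, 1393 to 1401 in QJ controls, 3200 to 3237 in stressed LJ and 3226 to 3273 in LJ controls. The same sum over 20 WAK genes was 421 to 443 FPKM in stressed QJ, 657 to 669 in QJ controls, 340 to 342 in stressed LJ and 439 to 442 in LJ controls.

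Several of the most abundant RLCK genes fell under stress in QJ and stood higher in LJ. OsRLCK152 had 73.4, 69.5 and 73.6 FPKM in stressed QJ, 345, 335 and 341 in QJ controls, and 386, 387 and 394 in stressed LJ. OsRLCK160, linked in rice to tolerance of ultraviolet B light, had 84.2, 83.0 and 86.8 FPKM in stressed QJ, 322, 328 and 322 in QJ controls, and 460, 470 and 465 in stressed LJ. They fell 4.67-fold and 3.79-fold in QJ (adjusted p = 4.65e-10 for each) and have no value for LJ controls. OsRLCK203 had 49.1 ± 1.99 FPKM in stressed QJ, 167 ± 2.99 in QJ controls, 222 ± 4.57 in stressed LJ and 310 ± 10.1 in LJ controls (SD, n = 3 each). OsRLCK101 went the other way in QJ, with 280, 274 and 274 FPKM under stress against 96.9, 95.1 and 98.9 in controls, a 2.83-fold rise (adjusted p = 1.24e-09), and has no LJ values.

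**Figure D2:**
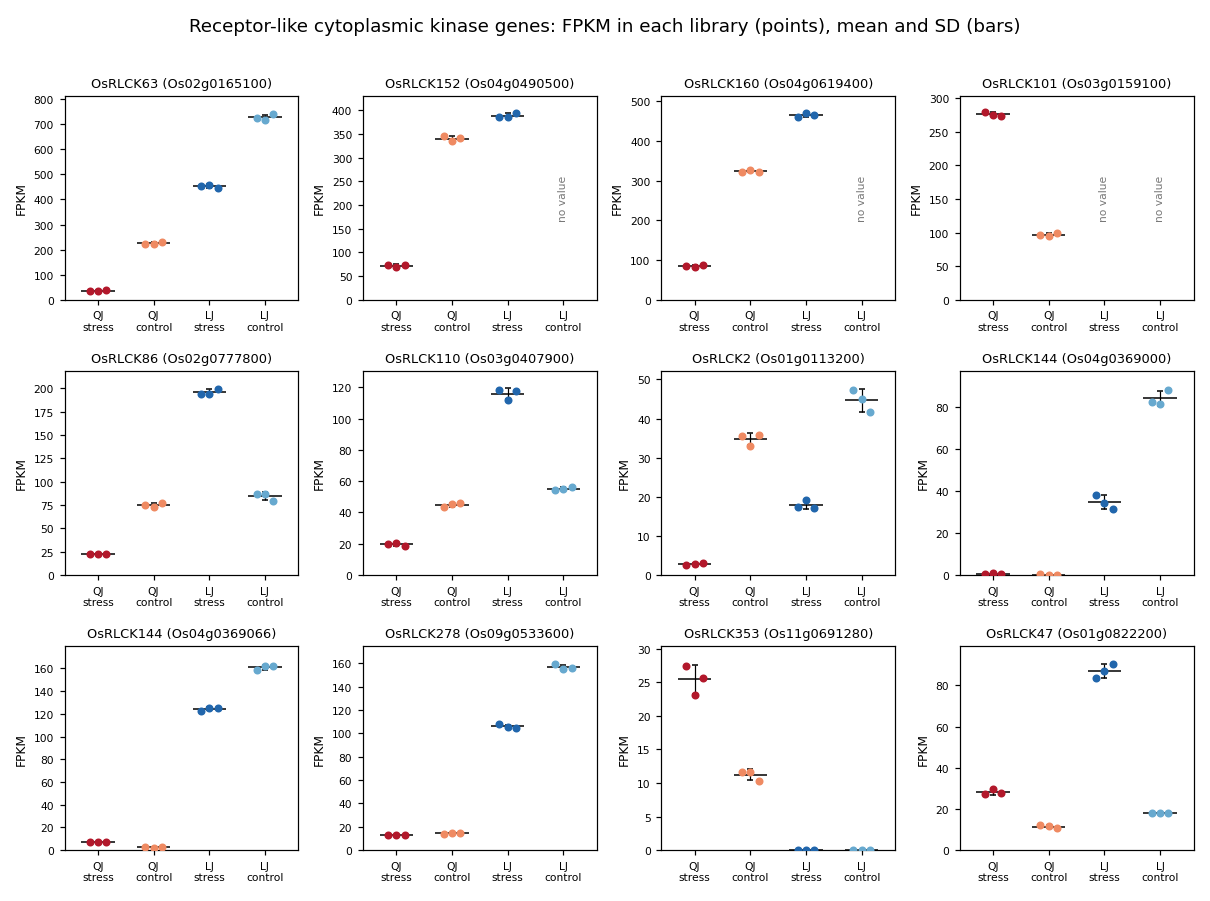
FPKM of 12 RLCK genes in each library (points) with the group mean and SD (bars), for stressed QJ, QJ control, stressed LJ and LJ control; OsRLCK144 is shown for both of its identifiers. OsRLCK63 was lowest in stressed QJ and highest in LJ controls, OsRLCK86 and OsRLCK110 were highest in stressed LJ and lowest in stressed QJ, and OsRLCK353 passed 0.1 FPKM in QJ only.

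OsRLCK278, OsRLCK253, OsRLCK176 and OsRLCK241, named here for their known roles in rice immunity and stress, differed between the controls of the varieties, and OsRLCK278, OsRLCK253 and OsRLCK241 also under stress. OsRLCK278, also known as BSR1 and a source of broad-spectrum disease resistance, had 13.1, 12.6 and 13.2 FPKM in stressed QJ against 108, 106 and 105 in stressed LJ, and 13.4, 14.7 and 14.5 in QJ controls against 159, 156 and 156 in LJ controls. It was 7.67-fold lower in QJ under stress (adjusted p = 1.73e-10) and 10.4-fold lower in QJ controls (adjusted p = 3.59e-10). OsRLCK253, which interacts with stress-associated proteins, stands on 2 identifiers. Os08g0374600 had 44.5 ± 1.65 FPKM in stressed QJ, 34.4 ± 0.614 in QJ controls, 230 ± 3.28 in stressed LJ and 174 ± 3.89 in LJ controls, and Os08g0374701 had 96.7 ± 6.83, 79.8 ± 2.79, 341 ± 13.1 and 183 ± 15.8 in the same groups (SD, n = 3 each). OsRLCK176, which acts below the chitin receptor kinase CERK1, ran the other way between controls, with 83.4 ± 1.12 FPKM in QJ and 36.6 ± 1.34 in LJ (SD, n = 3 each), 2.25-fold higher in QJ (adjusted p = 2.91e-08). OsRLCK241, linked to salt and drought tolerance, had 8.08, 9.47 and 8.72 FPKM in stressed QJ, 5.10, 3.76 and 4.25 in QJ controls, 33.0, 33.7 and 33.2 in stressed LJ, and 9.59, 10.7 and 8.66 in LJ controls. It rose 3.23-fold in LJ (adjusted p = 1.28e-07), and its response in QJ minus that in LJ was -0.82 ± 0.14 on the log2 scale (SE, adjusted p = 1.86e-04). OsRLCK57, an immune RLCK, was low in every group, at 3.05 ± 0.619 FPKM in stressed QJ, 1.20 ± 0.200 in QJ controls, 2.23 ± 0.395 in stressed LJ and 1.06 ± 0.129 in LJ controls (SD, n = 3 each), and it rose in both varieties; no table between varieties lists it.

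The direction of the stress response was split evenly over the RLCK genes in QJ. Of 53 listed, 39 passed the filter, of which 19 rose, 19 fell and OsRLCK156 did not pass, a split near the 50.7% higher and 49% lower of all genes tested. The median log2 fold change, -0.50, is that of OsRLCK156 itself; like the 0.66 over all genes it lies where the selection of the tables leaves few genes, and no difference is read from it. The largest called fall was that of OsRLCK2, with 2.41, 2.74 and 2.93 FPKM in stressed QJ against 35.6, 33.0 and 35.8 in QJ controls, 9.71-fold (adjusted p = 6.23e-09). OsRLCK265 fell 5.90-fold, to 1.69 ± 0.326 FPKM against 14.8 ± 0.881 in QJ controls, and OsRLCK3 fell 5.15-fold, to 3.21 ± 0.315 against 20.7 ± 1.78 (SD, n = 3 each). Rises after OsRLCK101 were those of OsRLCK282, with 36.4 ± 0.731 FPKM in stressed QJ against 12.6 ± 0.272 in QJ controls, OsRLCK245, with 5.90 ± 0.345 against 1.53 ± 0.249, and RLCK103, with 17.1 ± 0.930 against 5.82 ± 0.318. OsRLCK353, one of the genes limited to QJ, rose 2.17-fold in QJ (adjusted p = 3.83e-06).

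In LJ, 63 of 81 listed RLCK genes were tested, of which 38 rose and 25 fell, 60.3% higher and 39.7% lower against 49.6% higher and 50% lower over all genes. The medians, 0.86 for RLCK genes and -0.54 for all genes, follow from which side of an even split each list falls on. OsRLCK155 had the largest called rise, with 11.2, 12.6 and 11.0 FPKM in stressed LJ against 1.39, 1.39 and 1.15 in LJ controls, 5.45-fold (adjusted p = 5.96e-08), and stressed QJ had 1.70 ± 0.0777 (SD, n = 3). OsRLCK47 had 83.7, 87.2 and 90.4 FPKM in stressed LJ against 17.8, 17.99 and 17.9 in LJ controls, 4.66-fold (adjusted p = 1.15e-09), and 28.2 ± 1.23 in stressed QJ against 11.4 ± 0.885 in QJ controls (SD, n = 3 each). OsRLCK245 rose in LJ too, to 10.2 ± 1.18 FPKM against 1.73 ± 0.376 in LJ controls (SD, n = 3 each). Among RLCK genes averaging at least 5 FPKM in stressed or control LJ leaves, the falls were led by OsRLCK359, with 1.91 ± 0.350 FPKM in stressed LJ against 7.84 ± 0.459 in LJ controls, OsRLCK377, with 8.15 ± 0.335 against 23.2 ± 2.52, and OsRLCK222, with 1.55 ± 0.0964 against 5.59 ± 0.209. OsRLCK85, the ERECTA-family gene, fell in both varieties, with 2.58 ± 0.391 FPKM in stressed LJ against 8.03 ± 0.476 in LJ controls (adjusted p = 4.31e-06) and 0.537 ± 0.124 in stressed QJ against 1.67 ± 0.187 in QJ controls (adjusted p = 1.23e-04; SD, n = 3 each).

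Between varieties, RLCK genes followed the lower side of the tables. In controls, 78 of 98 listed RLCK genes were tested, of which 24 were higher and 54 lower in QJ, 69.2% lower against 68.6% over all genes. Under stress, 91 of 114 were tested, of which 22 were higher and 69 lower in QJ, 75.8% lower against 65.4% over all genes. Medians were -1.04 for RLCK genes and -1.02 for all genes in controls, and -0.98 for RLCK genes and -0.82 for all genes under stress. Of the 102 members with values in all 4 groups, 34 were higher in QJ by mean in both conditions and 65 in LJ in both. Of all 5534 such genes, 27.9% were higher in QJ in both conditions and 57.6% in LJ in both, so an excess on the LJ side is general. The order of the varieties was kept by 97.1% of the members, against 85.6% of all such genes. These shares depend on the listing, since a gene listed between varieties in both conditions has a large gap in each. Of the 85 members and 3880 genes so listed, 98.8% and 95.6% kept the order. OsRLCK351 was one that did not, with 2.12 ± 0.504 FPKM in stressed QJ against 4.47 ± 0.376 in stressed LJ, and 2.01 ± 0.0208 in QJ controls against 0.53 ± 0.160 in LJ controls (SD, n = 3 each). OsRLCK212 was among those higher in QJ, at 37.7 ± 1.77 FPKM in stressed QJ against 8.16 ± 1.047 in stressed LJ, and 24.98 ± 0.630 in QJ controls against 5.38 ± 0.220 in LJ controls (SD, n = 3 each). OsRLCK106 varied widely between libraries, with 7.35, 2.53 and 4.48 FPKM in stressed QJ against 18.4, 24.2 and 25.96 in stressed LJ, and 4.05, 9.62 and 5.28 in QJ controls against 31.7, 41.1 and 38.3 in LJ controls; its varieties did not overlap in either condition. Over members with a group mean of at least 5 FPKM, the median coefficient of variation within a group was 3.93% in stressed QJ, 4.37% in QJ controls, 3.88% in stressed LJ and 4.27% in LJ controls.

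Members next to each other by identifier did not all share the variety in which they were higher. Rice identifiers name the chromosome and run along it, and runs were set by gaps of at most 2000 in the number. The longest run, on chromosome 1 from Os01g0113200 to Os01g0117400, held 15 RLCK entries, OsRLCK2 to OsRLCK18, of which 14 had values under stress. The first 9 of these, OsRLCK2 to OsRLCK13, were higher in stressed LJ by mean, and the last 5, OsRLCK14 to OsRLCK18, were higher in stressed QJ. OsRLCK5 had 0.73, 0.62 and 0.25 FPKM in stressed QJ against 17.5, 17.8 and 17.4 in stressed LJ, and 0.70, 0.85 and 0.65 in QJ controls against 3.37, 4.23 and 4.50 in LJ controls. At the other end of the run OsRLCK17 (Os01g0117300) had 9.77, 10.8 and 8.55 FPKM in stressed QJ against 0.72, 1.01 and 0.78 in stressed LJ, and 10.3, 12.4 and 12.1 in QJ controls against 0.99, 1.54 and 1.15 in LJ controls. OsRLCK16, its neighbour, had 8.25 ± 0.935 FPKM in stressed QJ against 1.46 ± 0.0624 in stressed LJ (SD, n = 3 each).

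A run of 7 entries on chromosome 4, from Os04g0368000 to Os04g0371100, mixed WAK and RLCK names. OsWAK43, its first entry, was limited to QJ, and the other 6 were higher in stressed LJ by mean. OsRLCK144 stands on 2 identifiers there. Os04g0369000 had 0.48, 0.86 and 0.64 FPKM in stressed QJ against 38.0, 34.4 and 31.5 in stressed LJ, and 0.21, 0 and 0 in QJ controls against 82.6, 81.6 and 88.2 in LJ controls. Os04g0369066 had 6.67, 7.18 and 7.17 FPKM in stressed QJ against 123, 125 and 125 in stressed LJ, 15.7-fold lower (adjusted p = 9.26e-11), and 2.27, 2.16 and 2.32 in QJ controls against 159, 162 and 162 in LJ controls, 49.9-fold lower (adjusted p = 7.93e-11). Every QJ library of either entry lay below every LJ library. On chromosome 2, OsWAK18, OsWAK20 and OsWAK21 stand together and were each higher in stressed LJ, with the values given above. The last entry of that run, OsWAK23, had no value in stressed QJ and was higher in QJ between controls, at a mean of 1.14 against 0.33 FPKM. On chromosome 4, OsRLCK134, OsRLCK135 and OsRLCK136 stand together, and the middle one, OsRLCK135, was higher in QJ, at 9.79 ± 0.893 FPKM in stressed QJ against 3.15 ± 0.681 in stressed LJ, while OsRLCK136 was lower, at 1.48 ± 0.191 against 6.04 ± 0.254 (SD, n = 3 each).

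**Figure D3:**
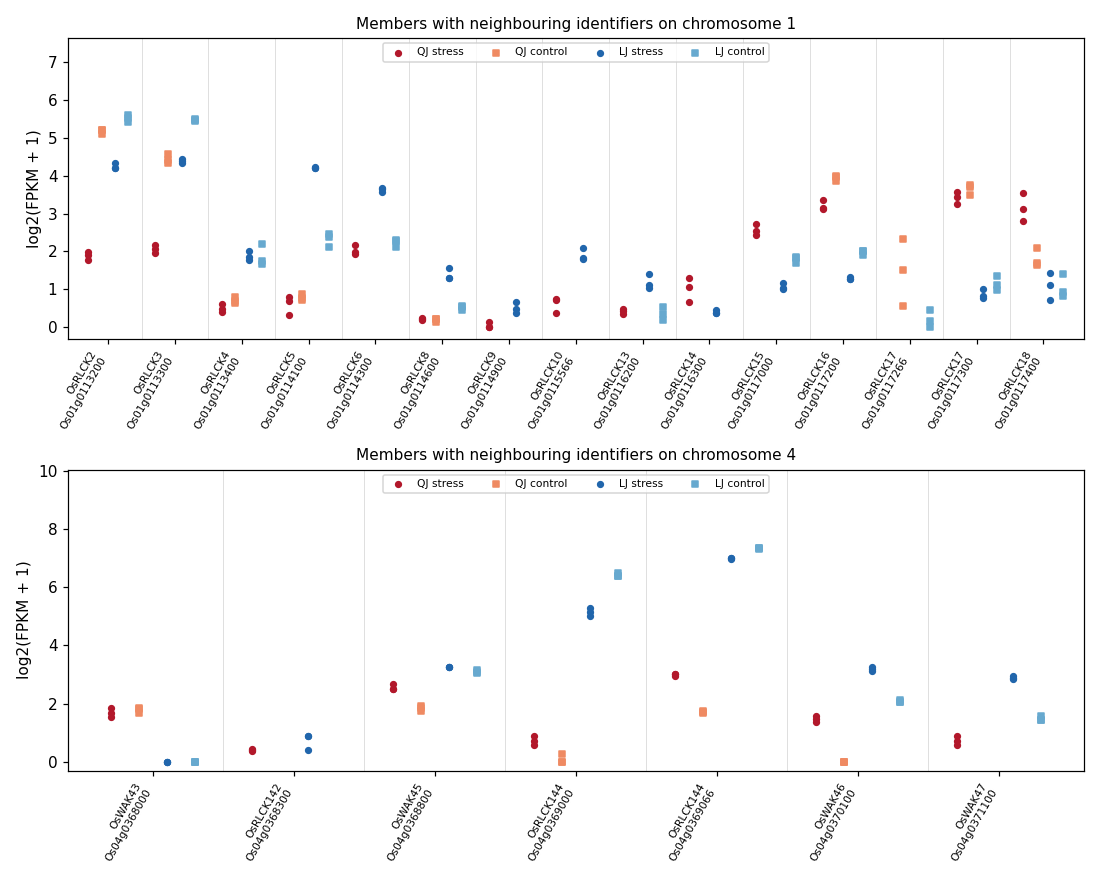
Level, as log2(FPKM + 1), of each library for the 15 entries of the run on chromosome 1 (top) and the 7 entries of the run on chromosome 4 (bottom), in the order of their identifiers, with stressed QJ, QJ control, stressed LJ and LJ control side by side. On chromosome 1 OsRLCK2 to OsRLCK13 were higher in stressed LJ and OsRLCK14 to OsRLCK18 in stressed QJ; on chromosome 4 OsWAK43 alone was higher in QJ.

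Of the 66 members listed for stress in QJ and the 97 listed in LJ, 32 were in both tables. They were 48.5% of the members listed in QJ and 33.0% of those listed in LJ. Over all genes the shared 2338 were 54.1% of the QJ list and 32.6% of the LJ list, so the members lay near these shares. Of the 32 members, 17 were higher under stress in both varieties and 11 lower in both. So 87.5% shared a direction, against 92.1% of all genes in both tables. The genes with opposite directions were OsWAK18, OsRLCK86, OsRLCK110 and OsRLCK144 (Os04g0369000). The last averaged only 0.66 FPKM in stressed QJ and 0.07 in QJ controls, did not pass the filter there and was not tested for stress in QJ. OsRLCK86 had 22.4, 22.5 and 22.9 FPKM in stressed QJ against 75.4, 72.5 and 76.8 in QJ controls, and 194, 194 and 199 in stressed LJ against 86.7, 86.9 and 79.6 in LJ controls. It fell 3.22-fold in QJ (adjusted p = 5.88e-09) and rose 2.30-fold in LJ (adjusted p = 2.07e-08), and OsRLCK110 fell 2.23-fold in QJ (adjusted p = 1.82e-07) and rose 2.08-fold in LJ (adjusted p = 2.13e-08). OsRLCK110 had 19.6, 20.5 and 18.7 FPKM in stressed QJ against 43.4, 45.6 and 45.7 in QJ controls, and 118, 112 and 117 in stressed LJ against 54.2, 54.9 and 56.5 in LJ controls.

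The difference of the stress responses, QJ minus LJ, was tested on genes with values in all 12 libraries. A gene has these only where the authors' selection listed it in tables that together cover all 4 groups. The test and its share over all genes thus rest on selected genes too. Of 19 WAK genes tested, 5 responded higher and 6 lower in QJ and 8 did not pass, and of 75 RLCK genes 24 responded higher, 21 lower and 30 did not pass, with 66.4% of 5170 genes passing, 41.4% higher and 25% lower. Medians were 0.10 for WAK genes, 0.04 for RLCK genes and 0.21 for all genes. Of the 56 members passing, 11 averaged under 1 FPKM in both groups of 1 variety, 7 of them in QJ and 4 in LJ. Their difference on this scale mostly restates the response of the other variety. Without them 4 WAK genes were higher and 5 lower, and 18 RLCK genes higher and 18 lower. The shares of all genes were not reduced in this way, so these splits have no matching background and nothing is read from them. With a pseudocount of 1 the largest differences among members were negative: OsRLCK86 at -2.89 ± 0.05 (SE, adjusted p = 3.16e-13), OsWAK18 given above, OsRLCK110 at -2.21 ± 0.06 (SE, adjusted p = 7.41e-12), OsRLCK5 at -2.08 ± 0.18 (SE, adjusted p = 4.44e-07) and OsRLCK2 at -2.01 ± 0.10 (SE, adjusted p = 2.68e-09), all on the log2 scale. Positive differences were led by OsRLCK144, at 1.89 ± 0.15 for Os04g0369000 (SE, adjusted p = 2.31e-07) and 1.67 ± 0.06 for Os04g0369066 (SE, adjusted p = 1.32e-10). The order depends on the pseudocount: with 0.1, OsRLCK144 (Os04g0369000) had the largest of the named differences, 3.63 against -3.25 for OsWAK18 and -2.94 for OsRLCK86. That entry and OsRLCK5 are among those under 1 FPKM in QJ. When each library was centred on its median over the genes tested, the RLCK genes split into 13 higher and 33 lower. The WAK genes split into 0 higher and 9 lower. All genes moved the same way, with 1405 higher after centring against 2140 before, so this turn is not particular to the 2 families. Centring moved the log2 difference of all genes by -0.30 here, by -0.32 for stress in QJ, 0.06 for stress in LJ, 0.60 between controls and 0.15 between stressed leaves. OsWAK1, WAK112 and OsRLCK218 changed sign in the difference of responses under centring and OsRLCK21 between controls, none of them passing the test then.

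**Figure D4:**
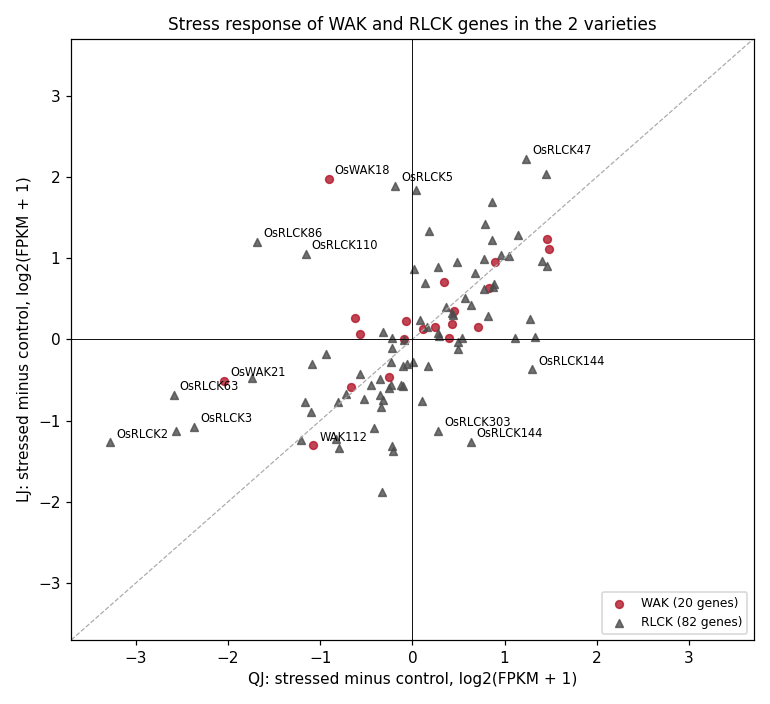
Stress response, stressed minus control in mean log2(FPKM + 1), in QJ (x axis) and LJ (y axis) for the 20 WAK and 82 RLCK genes with values in all 4 groups; the dashed line marks equal responses. OsWAK18, OsRLCK86 and OsRLCK110 lie at the upper left, lower in QJ and higher in LJ, and OsRLCK2 and OsRLCK63 lie far to the left with smaller falls in LJ.

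A list of genes that work with these kinases covered chitin receptors, co-receptors, NADPH oxidases, MAP kinases, calcium-dependent kinases and small GTPases. By their names OsBSK1-2 and OsRacGEF1 were in it too. Genes of the list were lower in QJ wherever the tables between varieties listed them and they passed the filter. Of 27 tested between controls, 0 were higher and 27 lower in QJ, against 31.1% higher and 68.6% lower of all genes, and of 20 tested under stress 0 were higher and 20 lower, against 34% and 65.4%. CEBIP, the chitin-binding receptor protein, had 96.0, 93.7 and 101 FPKM in stressed QJ against 213, 197 and 214 in stressed LJ, and 66.6, 70.3 and 73.2 in QJ controls against 266, 267 and 269 in LJ controls. Under stress, 1 of 4 tested in QJ rose and 3 fell, against 50.7% and 49% of all genes, and 4 of 19 in LJ rose and 15 fell, against 49.6% and 50%. RBOHB, an NADPH oxidase that makes reactive oxygen, and LYP2 were listed for stress but not between varieties, and by mean they were higher in QJ in both conditions, the 2 such genes among the 26 of the list with values in both stressed groups. RBOHB had 37.7, 37.3 and 38.8 FPKM in stressed QJ against 99.6, 101 and 101 in QJ controls, and 21.4, 20.8 and 19.7 in stressed LJ against 50.3, 50.5 and 50.0 in LJ controls. LYP2 had 17.2, 17.1 and 17.1 FPKM in stressed QJ against 4.64, 4.60 and 5.33 in QJ controls, and 8.99, 7.54 and 7.72 in stressed LJ against 3.54, 3.78 and 3.84 in LJ controls. Of 22 tested for the difference of responses, 14 responded higher in QJ, 6 lower and 2 did not pass, against 41.4% higher and 25% lower of all genes. A list of other receptor kinase names had 2 rises and 0 falls of 2 tested for stress in QJ, and 6 rises and 2 falls of 8 in LJ, where 49.6% and 50% of all genes rose and fell. Between controls 72.7% of 11 were lower in QJ against 68.6% of all genes, and between stressed leaves 81.8% of 11 against 65.4%. For the difference of responses it had 3 higher, 1 lower and 6 not passing of 10.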

How the data were processed

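Per the labels, RNA from rice leaves was sequenced on a NovaSeq X Plus. The deposited values are FPKM per gene and library, with the authors' log2 fold changes and p-values per table; aligner, genome build, counter and test: not given in the sources used here. Each table was found to hold only genes whose deposited adjusted p-value was below 0.05 and whose deposited log2 change reached 1 in either direction. Library columns were matched to samples by the titles, since descriptions repeat a name for the QJ samples of a group. The tables were joined by identifier with pandas 2.3.3, and values repeated between tables did not differ.

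Each table was fitted on log2(FPKM + 1) by limma 3.58.1 (R 4.3.3, trended prior), leaving out genes that did not reach 1 FPKM in 3 libraries. The difference of responses was an interaction term over all 12 libraries. Two-sided p-values were adjusted over all genes of a fit by the Benjamini-Hochberg method, with 0.05 as the threshold. The 2-decimal FPKM do not resolve single reads, so no count test was run. The procedure was tested on simulated data in which only a small part of the genes was changed. The deposited genes had been selected as differing, so that test does not give the share of false calls here. The members and lists were chosen with earlier results of these data known.

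Named members were, per family and comparison, up to 4 with the largest rise and up to 4 with the largest fall among those passing whose groups did not overlap and whose higher group averaged 5 FPKM or more, the variety-limited members and the member with the highest mean. Others were named, after their values were seen, for rank in level, place beside another member, opposite directions or a known role. Folds are given where the lower group had at least 1 FPKM. Alternatives were a pseudocount of 0.1, no filter, median centring, the scaling of the authors' fold changes, a replicate block, a joint fit of all groups and leaving out each library. Replicate numbers were not taken as pairs in the main fits. Over 18 correlations of deviations between libraries with the same number, values ran from -0.0453 to 0.0588. These show no shared shift by number but cannot tell whether the samples were grown or handled in sets.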

Additional observations from a re-analysis of the deposited data

Results flagged for a closer look

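The named members whose stress response differed between varieties by the limma interaction test are given as the response in QJ minus that in LJ, in log2 units with SE; the part of the marker lists' differences in these values was not tested.

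Among WAK genes the response was lower in QJ for OsWAK18 (-2.88 ± 0.13, adjusted p = 1.23e-09), OsWAK21 (-1.54 ± 0.09, adjusted p = 8.49e-09), WAK90 (-0.88 ± 0.13, adjusted p = 6.48e-05) and OsWAK33 (-0.37 ± 0.09, adjusted p = 0.00227). It was higher in QJ for OsWAK45 (0.55 ± 0.11, adjusted p = 7.49e-04), OsWAK46 (0.37 ± 0.12, adjusted p = 0.013) and OsWAK1 (0.24 ± 0.05, adjusted p = 0.00199). OsWAK46 is listed at 0 in all QJ controls, and its value is set by the pseudocount, at 2.93 with 0.1 in place of 1. OsWAK123 had 0.38 ± 0.10 (adjusted p = 0.00435), but it is listed at 0 to 0.04 FPKM in LJ, so this value restates its rise in QJ and does not compare 2 responses. OsWAK45 had 4.91 ± 0.377 FPKM in stressed QJ against 2.61 ± 0.217 in QJ controls, and 8.58 ± 0.0802 in stressed LJ against 7.59 ± 0.360 in LJ controls (SD, n = 3 each). The positive WAK differences did not hold under median centring, as given with the processing.

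Among RLCK genes the response was lower in QJ for OsRLCK86 (-2.89), OsRLCK110 (-2.21), OsRLCK5 (-2.08) and OsRLCK2 (-2.01). It was higher in QJ for OsRLCK144, at 1.89 for Os04g0369000 and 1.67 for Os04g0369066, for OsRLCK303 (1.41 ± 0.19, adjusted p = 3.02e-05) and for OsRLCK18 (1.29 ± 0.33, adjusted p = 0.00368). Os04g0369000 and OsRLCK5 averaged under 1 FPKM in both QJ groups, so their values mostly restate the response in LJ. OsRLCK303 had 3.74 ± 0.326 FPKM in stressed QJ against 2.96 ± 0.870 in QJ controls, and 7.91 ± 0.471 in stressed LJ against 18.4 ± 0.976 in LJ controls (SD, n = 3 each). OsRLCK18 had 5.92, 10.6 and 7.66 FPKM in stressed QJ against 3.29, 2.27 and 2.13 in QJ controls, and 0.64, 1.17 and 1.70 in stressed LJ against 1.66, 0.90 and 0.77 in LJ controls, where the LJ groups overlapped.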

How the results depend on the processing

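Over all alternatives, 1325 counts and named values kept their side of the threshold, or for counts stayed within 1.5 times, and 12 did not. Most of the 12 were in the difference of responses. Genes of the 4 pair comparisons had been selected by the authors for these differences, so their calls had little room to change. The joint fit of all groups holds only genes with values in all 12 libraries and tests them in every pair, so its set of genes differs. For stress in QJ it gave 10 WAK and 33 RLCK genes rising, against 6 and 19. The falls of both families and the rises of all genes in QJ stayed within 1.5 times. Of the 49 members passing there, 38 were retested and all kept their call, while 38 others passed in either direction. No skew to rises is read from these counts. In LJ it gave 1974 genes rising over all genes, against 2974. Median centring gave, for the difference of responses, 0 WAK genes higher against 5, 13 RLCK genes higher against 24, 33 RLCK genes lower against 21, and 1405 of all genes higher against 2140. Under it OsWAK1 turned to -0.0617 (adjusted p = 0.411), and OsWAK45 fell short at 0.254 (adjusted p = 0.068), OsWAK123 at 0.0767 (adjusted p = 0.538) and OsWAK46 at 0.0745 (adjusted p = 0.605). Of 56 members passing in the difference of responses, 40 passed under centring too and 16 did not, while 15 others passed. The cause was not tested. A pseudocount of 0.1 ended 8 of the 56 calls, those of OsRLCK85, RLCK103, OsRLCK119, OsRLCK242, OsRLCK265, OsRLCK269, OsRLCK352 and OsWAK123 (0.241, adjusted p = 0.366) and added 2 others. The replicate block gave 24 RLCK genes higher and 22 lower in the difference of responses, against 24 and 21, and changed no member's call in the 4 pair comparisons. Leaving out any 1 library lost no member's call in the pair comparisons and 1 to 4 calls in the difference of responses, among OsRLCK78, OsRLCK119, OsRLCK157, OsRLCK242 and WAK92. Between controls, centring ended the calls of OsWAK95 and 6 RLCK genes. Low levels limit the precision: at a group mean of 1 to 5 FPKM the median coefficient of variation was 13.8% in stressed QJ, 11.9% in QJ controls, 13.9% in stressed LJ and 10.4% in LJ controls.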
